A study of Mus musculus with 11 samples.

Results

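Transcript levels of 10 AP-1 and immediate early genes were described in 11 OvTrpMyc cell lines. The genes were listed by name from the 28284 genes of the count table, not by their values: Fos, Fosb, Fosl1, Fosl2, Jun, Junb, Jund, Egr1, Atf3, and Ier2. All 10 were detected in every line and passed the filter on low counts in both comparisons below. The lines came from 7 mice that were heterozygous for a transgene at the Trp53 locus, in which the promoter of Ovgp1, a gene of the oviduct epithelium, drives mutant p53 (Trp53-R270H) and Myc. Minced tissue was grown untreated in RPMI medium, so all lines share the labelled transgene genotype of the mice and the medium, and each line was sequenced as 1 library. The labels call the cells dividing, and the muscle fiber and Y-linked transcripts given below in S1 to S7 bear on that description. The ovary gave 7 lines (both lines of F318, both of F364, and the ROV lines of F319, F326, and F339, with ROV and LOV as the labels name them) and the uterus gave 2 (F319 and F333), while 1 line came from a tumor at the spleen of F326 and 1 from a tumor of the peritoneum of F361. As 4 mice (F364, F326, F319, and F318) were the source of 2 lines each, the lines were not independent animals, and the ages of the mice were not used here. According to the methods of the study, the F361 line did not express the mutant codon. With no nontransgenic line in the set, levels were compared only among transgenic lines.

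AP-1 is a family of transcription factor dimers built through leucine zippers. Jun proteins (Jun, Junb, and Jund) pair with each other or with Fos proteins (Fos, Fosb, and the Fos-related antigens Fosl1 and Fosl2), whereas Fos proteins need a Jun partner to bind DNA well. Fos, Fosb, Egr1, Ier2, and Atf3 belong to the immediate early genes, whose transcripts appear within minutes of a growth factor or stress signal and are short lived, while Fosl1 comes up later and is sustained in cells with lasting ERK signaling. Fosl1 and Junb are known from transformed fibroblasts and mesenchymal tumor cells, and Fos and Egr1 report recent stimulation. The question was how these genes stood beside each other from line to line.

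Promoters of 2 members are shown because Fos and Jun are the founding genes of their families. Each is the 250 bases before the RefSeq start on its own strand (assembly GRCm38.p6), 5′ to 3′, and capitals mark matches on either strand to TGACG, the core of cyclic AMP response elements, to its longer form TGACNTCA, to the AP-1 site form TGANTCA, or to a CArG box. The Fos window is chr12:85473640-85473889 (plus strand), and the Jun window is chr4:95052223-95052472 (minus strand).
Fos: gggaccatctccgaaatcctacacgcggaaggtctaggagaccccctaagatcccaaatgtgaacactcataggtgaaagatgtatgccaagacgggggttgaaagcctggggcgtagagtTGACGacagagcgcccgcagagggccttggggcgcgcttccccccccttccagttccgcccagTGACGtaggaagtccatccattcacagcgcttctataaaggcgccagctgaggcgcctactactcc
Jun: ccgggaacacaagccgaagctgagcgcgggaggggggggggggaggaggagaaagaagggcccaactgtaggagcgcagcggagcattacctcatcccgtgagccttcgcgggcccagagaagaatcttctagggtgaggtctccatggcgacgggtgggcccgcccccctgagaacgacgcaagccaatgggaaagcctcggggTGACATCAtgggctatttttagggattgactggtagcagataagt
The Fos window held TGACG at 129 and 66 bases before the start. The Jun window held 1 match to TGACNTCA, which began 45 bases before the start. TGACG occurred in 17.8% and TGACNTCA in 7.49% of 32851 RefSeq promoter windows of this length. Neither window matched TGANTCA (6.75% of windows) or a CArG box (1.47% of windows), the letters that serum response factor binds. Bases further than 250 before the start were not searched, and only these exact letters were matched. The lack of a match therefore does not show that either gene lacks a site for serum response factor or AP-1. A TGACNTCA match with G at its N also counts as TGACG. The RefSeq table held promoters of 7 of the 10 members, and those of Fosl1, Egr1, and Ier2 were not matched.

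The libraries held 13580525 to 27044598 counts on genes, and 3 counts, the detection floor, correspond to 0.111 to 0.221 CPM (counts scaled to a library total of 1000000). The libraries numbered S1 to S7 in the labels stood apart from S8 to S11, which are the uterus lines with F318 LOV and F339 ROV. A list of adult skeletal muscle fiber genes (29 of 30 found) took 7.71% to 14.7% of the counts in S1 to S7 and 0.160% to 1.27% in S8 to S11. In the same order, 10 fibroblast and mesenchymal markers took 0.183% to 1.73% against 2.31% to 3.86%, 9 macrophage and blood markers 0.0123% to 0.0996% against 0.00161% to 0.00333%, and 6 endothelial markers 75.2 to 313 CPM against 2.62 to 226 CPM. Transcripts of 4 genes of the Y chromosome (Ddx3y, Eif2s3y, Kdm5d, and Uty) summed to 128 to 174 CPM in S1 to S7 and 1.75 to 19.2 CPM in S8 to S11, although the labels give organs of female mice. The 10 epithelial markers summed to 3.54 to 159 CPM and 10.6 to 43.6 CPM, with F319 ROV at the top. Among them, Epcam (at most 2.12 CPM) and Pax8 (at most 3.04 CPM) were low in all lines. Keratins of the same list were higher in some lines. Krt18 was at 67.9 CPM and Krt8 at 52.7 CPM in F319 ROV, Krt18 at 39.9 CPM in F364 ROV, and Krt7 at 40.5 CPM in the F333 uterus line. All member values below are therefore given on both sides of this split, which is no group of the study and was placed by the muscle and Y-linked genes. The part of these other transcripts in the members' differences was not tested, and in such bulk libraries fewer cells of a type and less RNA per cell cannot be told apart.

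Fosl1 (chromosome 19, 5447547 to 5455946, plus strand), which encodes Fra-1, varied most of the 10 genes, 39.6-fold between its lowest and highest line. In S1 to S7 it ranged from 2.28 CPM in F361 through a median of 3.29 CPM in the F326 splenic tumor line to 19.1 CPM in F318 ROV. In S8 to S11 it was at 28.5 CPM in F339 ROV, 76.2 CPM in F318 LOV, 90.4 CPM in the F319 uterus line, and 83.7 CPM in the F333 uterus line. Each of the latter 4 lines thus lay above all of the former 7. The 4 lowest lines, F361, F364 ROV, F326 ROV, and the F326 splenic tumor line, had overlapping 95% Wilson intervals, which cover counting error only (1.61 to 3.24 CPM in F361 and 2.51 to 4.32 CPM in the F326 splenic tumor line). Above them, F319 ROV (7.57 CPM), F364 LOV (13.3 CPM), F318 ROV, and F339 ROV each stood clear of its neighbors, and at the top the intervals of the uterus lines overlapped (86.9 to 94.1 CPM and 79.9 to 87.6 CPM). In edgeR's quasi-likelihood test over all genes, Fosl1 rose in S8 to S11 by a log2 fold change of 2.96 ± 0.58 (SE from the F statistic, n = 4 and 7 lines, adjusted p = 0.00110). Leaving out each line in turn gave 2.81 to 3.32, and the ovary lines alone gave 2.23 (adjusted p = 0.0435, edgeR). The gene Ccdc85b shares 1163 of the 2033 exon bases of Fosl1 on the opposite strand, and the strand setting of the counting was not given in the sources used here. Ccdc85b, looked up after the values of Fosl1 were seen, did not separate the sides, with 43.2 to 86.3 CPM in S1 to S7 and 35.7 to 89.0 CPM in S8 to S11.

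Fosl2 (chromosome 5, 32135801 to 32157842, plus strand), which encodes Fra-2, followed the same order of sides at a higher level. It ranged from 21.3 CPM in F361 through a median of 93.4 CPM to 113 CPM in F364 ROV among S1 to S7. F339 ROV held 207 CPM, F318 LOV 277 CPM, the F319 uterus line 349 CPM, and the F333 uterus line 168 CPM, so that the sides did not overlap. Fosl2 rose in S8 to S11 by 1.26 ± 0.35 on the log2 scale (adjusted p = 0.00888, edgeR's quasi-likelihood test).

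Fos (chromosome 12, 85473890 to 85477273, plus strand), the immediate early member of the family, was low and did not separate the sides. It ranged from 5.38 CPM in F361 through a median of 8.01 CPM in F326 ROV to 13.1 CPM in F318 ROV among S1 to S7. In S8 to S11 the values spread on either side of that median, with 12 CPM in F339 ROV, 4.50 CPM in F318 LOV, 8.91 CPM in the F319 uterus line, and 2.97 CPM in the F333 uterus line. The fitted difference of Fos was -0.59 ± 0.37 on the log2 scale, within the spread of the lines (adjusted p = 0.189, edgeR's quasi-likelihood test). Fosb (chromosome 7, 19302696 to 19310051, minus strand), an activity-induced relative of Fos, had the lowest median CPM of the 10. It lay at 0.736 to 3.93 CPM in S1 to S7 and at 1.58 to 2.82 CPM in S8 to S11, and rested on 10 reads in F361. Its fitted log2 difference was -0.27 ± 0.45 (adjusted p = 0.620, edgeR's quasi-likelihood test).

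**Figure D1:**
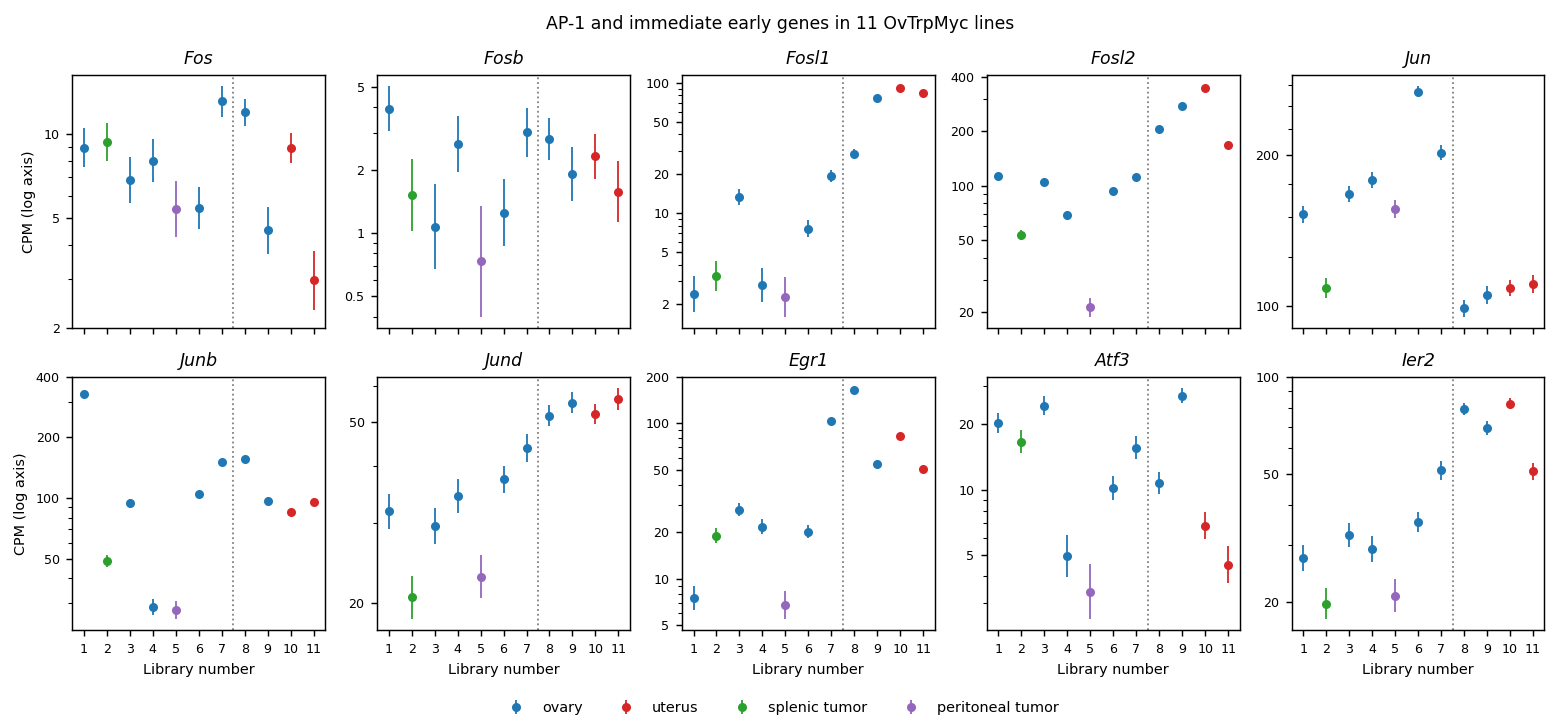
CPM of each member gene (log axis, scaled per panel) by library number, 1 point per line colored by origin, with bars for 95% Wilson intervals of counting error and a dotted line between S7 and S8. Fosl1, Fosl2, and Jund lie higher in every line right of the dotted line than in any line left of it, while Fos ranges from 2.97 CPM in the F333 uterus line to 13.1 CPM in F318 ROV.

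Because longer transcripts yield more reads, the members of a family were set beside each other as reads per kilobase of exon. Fosl1 made up 6.86% of the Fos family in F364 ROV and 68.5% in the F333 uterus line. Its share was 34.8% or less in S1 to S7 and 34.2% in F339 ROV, so F339 ROV fell within the range of the other side, whereas F318 LOV (54.9%), the F319 uterus line (52.5%), and the F333 uterus line lay above it. Fos took 14.2% to 39.9% of the family in S1 to S7 and 2.10% to 12.4% in S8 to S11, with no overlap. Fosl2 was the largest share in 6 of the lines of S1 to S7 and in F339 ROV, with 67.5% in F364 ROV at the top. In F361, the line with the lowest Fosl1 CPM, Fos (39.9%) and Fosl2 (38.4%) stood nearly level. Fosb never passed 3.65%. Per kilobase, Fosl1 was 0.312 times the level of Fos in F364 ROV, 0.491 times in F361, and above it in 7 lines, reaching 11.7 times in the F319 uterus line, 19.6 times in F318 LOV, and 32.6 times in the F333 uterus line. The order of the 2 genes thus turned within the set, and it turned also between the ovary lines of a single mouse, with 0.312 in F364 ROV and 2.25 in F364 LOV. These shares and ratios use all exon bases of Fosl1, including the 1163 shared with Ccdc85b. The part of that overlap in them was not tested.

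Jun (chromosome 4, 95049034 to 95052222, minus strand), the founding Jun gene, went the other way. It ranged from 108 CPM in the F326 splenic tumor line through a median of 167 CPM in F364 LOV to 267 CPM in F319 ROV among S1 to S7. In S8 to S11 it varied little, with 98.9 CPM in F339 ROV, 105 CPM in F318 LOV, 108 CPM in the F319 uterus line, and 110 CPM in the F333 uterus line. The F326 splenic tumor line alone among S1 to S7 fell into that range. Jun fell by 1.08 on the log2 scale (SE 0.20, adjusted p = 0.000868, edgeR's quasi-likelihood test). The antisense gene Junos shares 232 exon bases with Jun, and it held 3.20 to 31.1 CPM in S1 to S7 and 0.980 to 2.10 CPM in S8 to S11.

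Junb (chromosome 8, 84974484 to 84978718, minus strand), the other Jun gene of immediate early type, varied 11.8-fold over the lines and mostly within S1 to S7. It lay at 27.8 CPM in F361, 28.8 CPM in F326 ROV, and 327 CPM in F364 ROV, with a median of 94.2 CPM in F364 LOV. S8 to S11 held 155 CPM in F339 ROV, 96.9 CPM in F318 LOV, 85.6 CPM in the F319 uterus line, and 95.3 CPM in the F333 uterus line, inside that range. The fitted log2 difference of Junb was -0.40 ± 0.59 (adjusted p = 0.581, edgeR's quasi-likelihood test), and without F364 ROV it was 0.20. Jund (chromosome 8, 70698949 to 70700616, plus strand), the Jun gene that is expressed steadily in most cells, ranged from 20.6 through 31.8 to 43.8 CPM in S1 to S7. F339 ROV held 51.6 CPM, F318 LOV 55.2 CPM, the F319 uterus line 52.1 CPM, and the F333 uterus line 56.1 CPM. The CPM of Jund did not overlap between the sides, but its fitted log2 difference of 0.42 ± 0.18 did not pass the threshold (adjusted p = 0.0565, edgeR's quasi-likelihood test). Prdx2 shares 173 exon bases with Junb and Gm11175 shares 877 with Jund, each on the opposite strand, and Prdx2 held 138 to 241 CPM and 147 to 198 CPM on the respective sides.

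Per kilobase, Jun took 22.8% to 65.4% of the Jun family in S1 to S7 and 23.9% to 33.2% in S8 to S11. Junb took 14.1% to 68.1% and 36.3% to 52.1%, and Jund 9.13% to 23.2% and 23.9% to 30.7%. The part of the 877 exon bases that Jund shares with Gm11175 in these shares was not tested. F364 ROV differed from the other lines of S1 to S7 by Junb, which stood at 2.99 times the level of Jun there and at 1.04 times or less in the rest. In S8 to S11 Junb exceeded Jun in all 4 lines, by 1.09 to 2.18 times. The summed CPM per kilobase of exon (RPKM) of the Fos family were 5.72 to 27.0 in S1 to S7 and 41.0 to 84.7 in S8 to S11, while those of the Jun family were 67.5 to 209 and 102 to 129. Jun family transcripts therefore outnumbered Fos family transcripts per kilobase in every line, by 5.43 to 13.0 times in S1 to S7 and by 1.21 to 3.16 times in S8 to S11.

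**Figure D2:**
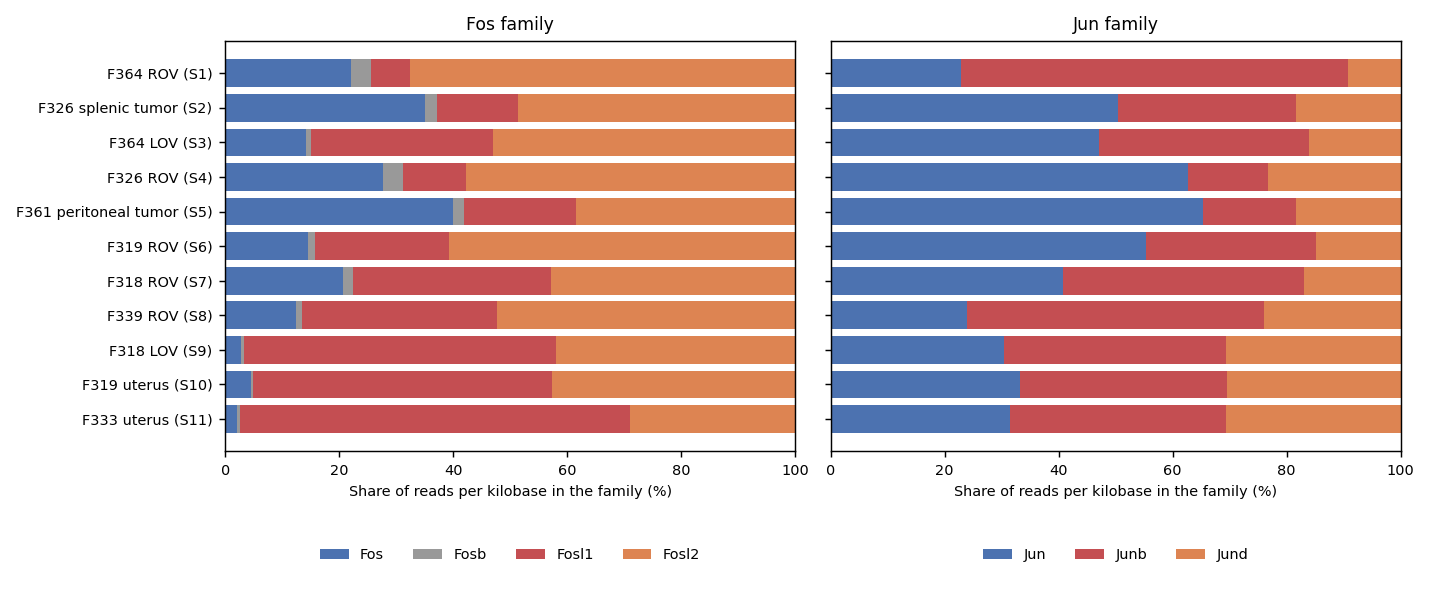
Share of each gene in the summed reads per kilobase of the Fos family (left) and the Jun family (right), in percent, with 1 bar per line. The Fosl1 share grows from 6.86% in F364 ROV to 68.5% in the F333 uterus line, and the Junb share is highest in F364 ROV, at 68.1%.

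Egr1 (chromosome 18, 34859823 to 34864984, plus strand), a zinc finger factor induced through ERK and serum response factor, varied 24.1-fold. Among S1 to S7 it was at 6.77 CPM in F361, 7.48 CPM in F364 ROV, a median of 20.1 CPM in F319 ROV, and 104 CPM in F318 ROV. It was at 163 CPM in F339 ROV, 54.9 CPM in F318 LOV, 82.3 CPM in the F319 uterus line, and 51.2 CPM in the F333 uterus line. F318 ROV alone among S1 to S7 reached the level of S8 to S11. The fitted log2 difference of Egr1 was 1.28 ± 0.60 (adjusted p = 0.0833, edgeR's quasi-likelihood test), and it was 1.93 and passed without F318 ROV (adjusted p = 0.00291 in the same edgeR test). Without F339 ROV it was 0.83 (adjusted p = 0.286, edgeR), and it passed in 1 of the 19 alternatives. Egr1 stood at 0.439 times the level of Fos per kilobase in F364 ROV and at 9.03 times in the F333 uterus line.

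Ier2 (chromosome 8, 84661331 to 84662852, minus strand), a short immediate early gene, ranged from 19.7 through 29.2 to 51.1 CPM in S1 to S7, with F318 ROV at the top. It was at 79.2 CPM in F339 ROV, 69.1 CPM in F318 LOV, 82.5 CPM in the F319 uterus line, and 50.8 CPM in the F333 uterus line, which lay just under F318 ROV. Ier2 rose by 0.84 ± 0.21 on the log2 scale (adjusted p = 0.00452, edgeR's quasi-likelihood test). Atf3 (chromosome 1, 191170296 to 191218039, minus strand), a stress-induced factor that can repress transcription as a homodimer, had no such order. It ranged from 3.39 CPM in F361 through 15.6 CPM in F318 ROV to 24.4 CPM in F364 LOV among S1 to S7, and was at 10.7 CPM in F339 ROV, 27.2 CPM in F318 LOV, 6.80 CPM in the F319 uterus line, and 4.50 CPM in the F333 uterus line. The fitted log2 difference of Atf3 was -0.54 ± 0.59 (adjusted p = 0.443, edgeR's quasi-likelihood test), and without F318 LOV it was -1.27 and did not pass (adjusted p = 0.0897 in the same edgeR test). In CPM, F361 was the lowest of all 11 lines for 6 of the 10 genes, namely Fosb, Fosl1, Fosl2, Junb, Egr1, and Atf3. Of these, only Fosl2 had a Wilson interval in F361 that stood clear of every other line. With TMM-scaled library sizes, Junb was lower in F326 ROV (31.2) than in F361 (32.1). F361 had the smallest library, and the share of all genes that were lowest in F361 was not computed.

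Between S8 to S11 and S1 to S7, then, 4 of the 10 genes passed edgeR's test: Fosl1, Fosl2, and Ier2 were higher and Jun was lower in S8 to S11. Over all 15954 genes tested, 58.5% passed, 28.6% as higher and 29.9% as lower, and 4 of 10 is under that background. The median log2 difference was 0.076 over the 10 genes and 0.025 over all genes tested. In CPM, Fosl1, Fosl2, and Jund lay higher in S8 to S11 with no overlap, which held for 26.1% of all genes, and no member lay lower with no overlap, which held for 17.1%. With TMM-scaled library sizes, 5 members did not overlap, Ier2 being added above and Jun below, where 20.4% of all genes lay higher and 21.1% lower without overlap. Scaling by total counts alone moved the median log2 difference of all genes from 0.025 to 0.40 and split the calls of all genes into 6080 higher and 3734 lower, in place of 4568 and 4769. Under that scaling Jund passed as well (0.77, adjusted p = 0.00712, edgeR's test), and without F318 ROV both Jund (0.47, adjusted p = 0.0460) and Egr1 passed in the same edgeR test.

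Uterus and ovary could be compared with 2 and 7 lines, although both uterus lines belong to S8 to S11 and 5 of the ovary lines to S1 to S7. The uterus lines held 90.4 and 83.7 CPM of Fosl1, and the ovary lines 2.41 to 76.2 CPM, with a median of 13.3 CPM. It was the only member without overlap, and it lay higher in the uterus, as 5.04% of all genes did. No member lay lower without overlap, as 3% of all genes did. The fitted log2 difference of Fosl1 was 1.98 ± 0.91 and did not pass (adjusted p = 0.359, edgeR's quasi-likelihood test). It was 2.70 without F318 LOV and 3.30 with the mouse as a block, and passed in neither. For Atf3 the uterus lines held 6.80 and 4.50 CPM and the ovary lines 4.94 to 27.2 CPM, a log2 difference of -1.73 ± 0.66 (adjusted p = 0.359 in the same edgeR test), which was -0.85 with the mouse as a block. No member passed, and neither did any of the 17446 genes tested (0%). At an unadjusted p under 0.05 edgeR gave 2308 genes, with Atf3 as the only member, and DESeq2 gave 1297 genes past its adjusted threshold (196 higher and 1101 lower) but no member. Within S8 to S11, where 2 ovary lines face 2 uterus lines, the log2 difference was 0.74 for Fosl1, -0.70 for Egr1, and -1.76 for Atf3, and none passed.

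**Figure D3:**
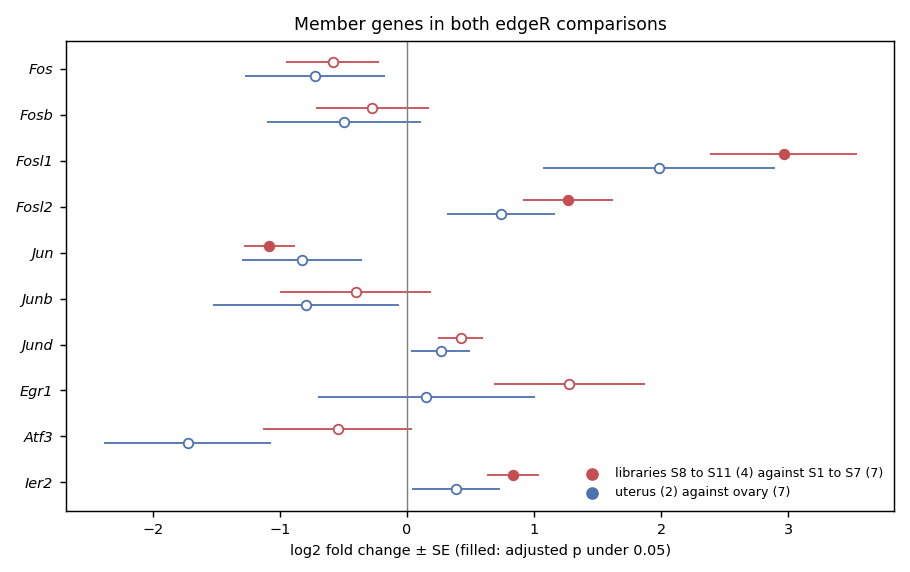
Fitted log2 fold change with SE of each member in the comparison of S8 to S11 with S1 to S7 (red) and of uterus with ovary (blue), with filled points for an adjusted p under 0.05 in edgeR's test. Only Fosl1, Fosl2, Jun, and Ier2 are filled, all in red, and the 2 comparisons share lines.

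For lines grown from a single mouse, the members' differences are given beside those of all genes. Ratios of the members were taken from CPM, but those of all genes from CPM with 1 added. Adding 1 shrinks the ratios of low genes, so medians and 2-fold shares of members and of all genes are not on the same scale. Small differences between them are therefore not read. F364 gave lines from each ovary, sequenced as S1 and S3, and 4 of the 10 members differed more than 2-fold between them, against 6.46% of the 16250 genes compared, while the median absolute log2 ratio was 0.326 over the members and 0.302 over all genes. From F364 ROV to F364 LOV, Fosl1 went from 2.41 to 13.3 CPM (5.51-fold) and Egr1 from 7.48 to 27.8 CPM (3.72-fold), while Junb went from 327 to 94.2 CPM (0.288-fold) and Fosb from 3.93 to 1.08 CPM (0.274-fold). Jun, Jund, Fosl2, Atf3, Ier2, and Fos stayed within 2-fold there, and the muscle fiber list took 14% of the counts in F364 ROV and 13.9% in F364 LOV. The epithelial markers took 0.00476% and 0.000626%, the endothelial markers 0.0161% and 0.0313%, the fibroblast and mesenchymal markers 0.184% and 0.326%, and the macrophage and blood markers 0.0734% and 0.0708%, in that order, and the part of these transcripts in the members' differences was not tested. The F326 splenic tumor line and F326 ROV, both of S1 to S7, differed more than 2-fold in Atf3 alone (16.6 and 4.94 CPM), against 22.1% of all genes. The other pairs crossed the split. From F318 ROV (S7) to F318 LOV (S9), Fosl1 was 3.98-fold and Fosl2 2.48-fold as high and Fos 0.342-fold, 3 members past 2-fold against 34.9% of all genes. From F319 ROV (S6) to the F319 uterus line (S10), Fosl1 was 11.9-fold, Egr1 4.10-fold, Fosl2 3.74-fold, and Ier2 2.33-fold as high, and Jun 0.406-fold, 5 members against 45.9% of all genes. The 4 pairs are single libraries, and no test was made of them.

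**Figure D4:**
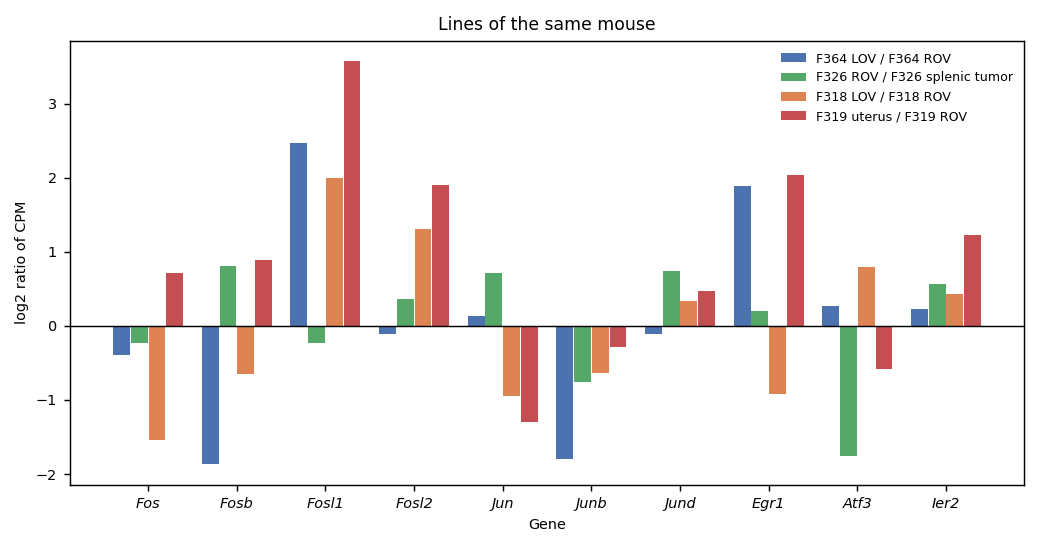
Log2 ratio of CPM between the 2 lines of each of 4 mice for every member gene, 1 bar per mouse, with a single library behind each line. Fosl1 is higher in the line named first in the legend in 3 of the 4 mice and slightly lower in F326, and Junb is lower in all 4.

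Genes around AP-1 were taken from 5 lists, of which none held a call between uterus and ovary (edgeR's test, 0 of 24, 13, 21, 17, and 24 genes tested). Between S8 to S11 and S1 to S7, the list of other immediate early genes had 8 of 24 higher and 4 lower, with a median log2 difference of 0.68 against 0.025 over all genes. The counts of this and the following lists stand beside 28.6% higher and 29.9% lower over all genes tested. The 3 named by size were all lower in S8 to S11: Nr4a3 (-2.66 ± 0.93, adjusted p = 0.0265), an orphan nuclear receptor, Dusp2 (-2.62 ± 0.71, adjusted p = 0.00758), an ERK phosphatase, and Nr4a1 (-2.45 ± 0.67, adjusted p = 0.00820), another orphan receptor, all by edgeR's test. Nr4a1 lay at 34.9 to 231 CPM in S1 to S7 and at 18.9 to 47.9 CPM in S8 to S11. Without F364 ROV the difference of Nr4a3 was -1.37 and that gene still passed (edgeR adjusted p = 0.0249), and with DESeq2 it was -1.34. Nr4a3 lost its call among ovary lines alone (-3.11, adjusted p = 0.0863, edgeR) and without F318 LOV (adjusted p = 0.0705), the F319 uterus line (0.0580), or the F333 uterus line (0.0571). Of the 13 ERK feedback genes, 4 were higher and 0 lower by edgeR (median 0.55). Spred1 rose by 2.07 ± 0.28, Etv4 by 1.57 ± 0.40, and Spred2 by 1.25 ± 0.25 on the log2 scale (edgeR adjusted p = 0.000143, 0.00518, and 0.00146). Spred proteins restrain ERK signaling, and Etv4 is an ETS factor that ERK induces.

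Of 21 serum response and ERK signal genes, 9 were higher and 6 lower in S8 to S11 (median 0.19). Elk3, a ternary complex factor at serum response elements, rose by 2.11 ± 0.29, and Mkl1, a coactivator of serum response factor, by 1.43 ± 0.20 on the log2 scale (edgeR adjusted p = 0.000160 and 0.000163). Of 17 other AP-1 partners and bZIP genes, 7 were higher and 6 lower (median 0.14). Mafk fell by 2.04 (SE 0.62, edgeR adjusted p = 0.0136), and Jdp2, a bZIP partner that represses Jun targets, rose by 2.0 ± 0.36 (edgeR adjusted p = 0.000756). Of 23 genes known as AP-1 targets, 10 were higher and 0 lower (median 1.79). Ptgs2, the inducible cyclooxygenase, rose by 3.46 ± 1.09, Timp1, a metalloproteinase inhibitor, by 2.85 ± 0.44, and the hyaluronan receptor Cd44 by 2.71 ± 0.56 (edgeR adjusted p = 0.0164, 0.000301, and 0.00158). Cd44 lay at 11 to 131 CPM in S1 to S7 and at 209 to 831 CPM in S8 to S11. Without F318 ROV the difference of Ptgs2 was 5.14. Among ovary lines alone, Ptgs2 (2.08, edgeR adjusted p = 0.254) and Etv4 (1.19, edgeR adjusted p = 0.0764) did not pass. Many of these targets are also made by fibroblasts, and the mesenchymal markers moved the same way, from 0.183% to 1.73% of counts to 2.31% to 3.86%. Their part in the counts was not tested.

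**Figure D5:**
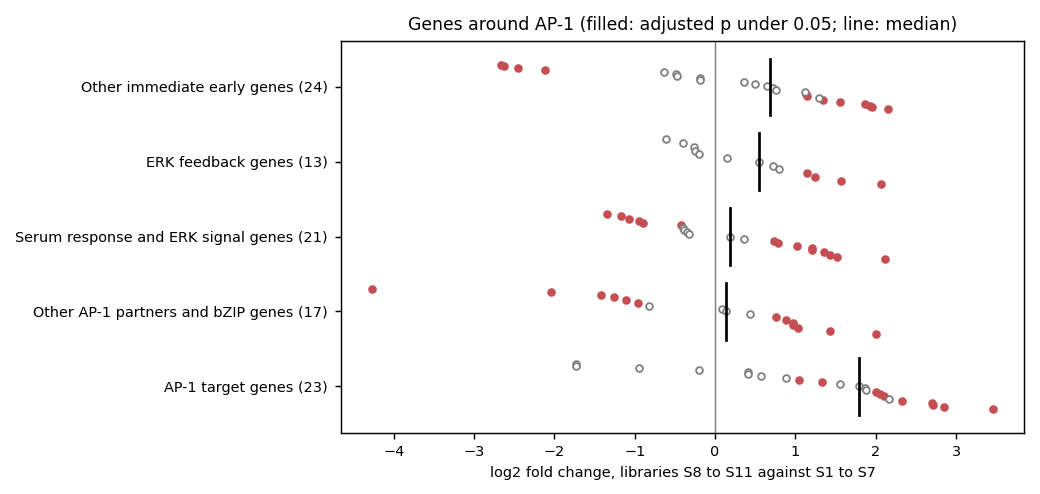
Log2 fold change of S8 to S11 against S1 to S7 for every tested gene of the 5 lists, with red points for an adjusted p under 0.05 in edgeR's test and a black line at each list's median. The AP-1 target genes have the highest median (1.79) and no red point below 0, whereas red points of the bZIP genes lie on either side.

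Likeness between members was taken over the 11 lines. Pearson's r of log2(CPM + 1) with Fosl1 was 0.89 for Ier2, 0.87 for Jund, 0.84 for Fosl2, and 0.79 for Egr1, and it was 0.28 for Junb, 0.06 for Atf3, -0.25 for Fos, and -0.50 for Jun. Such values were common, since Ier2 had only place 1804 among 16249 genes ordered by r with Fosl1, Jund 2536, Fosl2 3128, and Egr1 4330. Fos was most like Fosb (r = 0.59) and reached 0.28 with Egr1. Within S1 to S7, r was 0.86 between Fosl1 and Egr1, 0.83 between Fosl1 and Ier2, 0.37 between Fosl1 and Junb, and 0.63 between Fos and Egr1. Jun and Fosl1, opposed over all lines, had r = 0.49 within S1 to S7. These values are descriptions over lines that share mice and library number, so no p is given. Among 16250 genes with at least 10 counts in at least 4 lines, those most like Fosl1 were Btbd10 (r = 0.98), Gm17300, Lgals1, which encodes galectin-1, Ftl1, a ferritin light chain, and Wdr1, an actin-disassembly factor. Lgals1 was lowest in F326 ROV (324 CPM) and highest in the F319 uterus line (1602 CPM), whereas Gm17300 never passed 0.740 CPM. Those most like Fos were Plxdc2 (r = 0.90), Gm684, Klhl13, Adgrl2, and Slc17a7, the vesicular glutamate transporter gene. Plxdc2 ran from 6.45 CPM in the F333 uterus line to 84.5 CPM in F339 ROV, and Gm684 and Slc17a7 stayed at or below 1.03 and 0.863 CPM. By rank the lists changed, and within S1 to S7 neither list kept a gene.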

How the data were processed

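RNA was extracted from 11 OvTrpMyc lines, and poly(A) libraries were made with a directional kit and read as paired ends. The authors aligned reads to GRCm38 (mm10, Ensembl annotation) with STAR, removed PCR duplicates, and counted reads on genes with featureCounts. The strand setting of the counting was not given in the sources used here. The deposited values are raw counts per gene, without normalization. CPM was the count divided by the library total and scaled to 1000000, RPKM was CPM per kilobase of merged GENCODE M21 exons, and both were computed here. Of 28284 genes, 27092 were placed on GRCm38 by a unique symbol. Intervals are 95% Wilson intervals.

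Comparisons were fitted to all genes with edgeR 4.0.16 in R 4.3.3 (TMM normalization, filterByExpr, quasi-likelihood test, Benjamini-Hochberg adjusted p under 0.05). SE is the absolute log2 fold change divided by the square root of F. The scripts were tested on simulated data. Tables and plots were made with Python 3.11.15, numpy 2.4.6, scipy 1.17.1, pandas 2.3.3, and matplotlib 3.10.9. Alternatives were DESeq2 1.42.0, its size factors in edgeR, total counts only, no filter, and removal of the muscle fiber list. Others were 1 sum per mouse and group, the mouse as a block, and the side of the split (S1 to S7 or S8 to S11) as a term. Subsets of lines and each line left out were also fitted.

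Groups came from sample titles and library numbers from descriptions. Each line is 1 library and some share a mouse, so p-values measure only the spread between these lines. The members, the gene lists, and the split at S7 and S8 were chosen with earlier results of these data known. Besides the members, the text names, per list and comparison, at most the 3 called genes with the largest change and, for Fos and Fosl1, the 5 genes with the highest correlation. Some genes that this rule names are not reported here. Overlapping genes were added after values were seen. Promoter sequences are from RefSeq (GRCm38.p6), and proteins were not used here.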

Additional observations from a re-analysis of the deposited data

How the results depend on the processing

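No member passed edgeR's test between uterus and ovary under any of the 18 alternatives. The count over all genes moved from 0 to 1297 with DESeq2 and to 2 with no filter on low counts, and was 0 to 1 when each line was left out in turn (1 without the F333 uterus line). Directions turned for members that had not passed. With the mouse as a replicate block the uterus difference was 0.44 for Fos, 0.62 for Fosb, 1.76 for Egr1, -0.85 for Atf3, and 3.30 for Fosl1 on the log2 scale, and the block changed no call. Within S8 to S11 the uterus difference was 0.12 for Jun, -0.70 for Egr1, and -0.16 for Ier2. With the side of the split (S1 to S7 or S8 to S11) as a term it was 0.17, -0.65, and -0.11. Egr1 ranged from -0.10 to 0.60 over the lines left out. The causes were not tested.

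Between S8 to S11 and S1 to S7, Fosl1, Fosl2, Ier2, and Jun passed in the same direction under all 19 alternatives, and the number of members that passed was 4 to 6. The count over all genes was 6757 to 9861. Fosb turned to 0.092 with total counts only, and Junb ranged from -0.59 to 0.20 over the lines left out. The members without overlap numbered 3 in CPM (26.1% of all genes higher and 17.1% lower), 4 with the muscle fiber list taken out of the totals (22.1% and 19.4%), and 5 with TMM-scaled library sizes (20.4% and 21.1%). The median Fosl1 share of the Fos family over the lines, 31.9% per kilobase, was 10.5% when counts were not divided by length, as Fosl1 is shorter than Fosl2. Of the 5 genes most like Fos, 3 remained by Spearman's rho, 0 within S1 to S7, and 3 with a pseudocount of 0.1. Of those most like Fosl1, 0 remained by Spearman's rho and 0 within S1 to S7.

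Depth limits Fosb and the low libraries of Fosl1, which rest on as few as 10 and 31 reads. No uterus line lies in S1 to S7, so organ and library number are partly confounded.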
